A study of Mus musculus with 8 samples.

Results

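The genes described here are 31 mouse genes of the G1/S transition and DNA replication, taken by their symbols and found by Ensembl identifier in all 8 deposited count files, out of 53715 genes in each file. They were described by role: 9 licensing genes (Orc1, Cdc6, Cdt1 and Mcm2 to Mcm7), 13 genes of the replication fork (Mcm10, Cdc45, Gins1, Gins2, Pola1, Prim1, Pole, Pcna, Rfc3, Rfc4, Fen1, Chaf1a and Chaf1b), 4 of deoxynucleotide synthesis (Rrm1, Rrm2, Tyms and Tk1), and 5 of G1/S control and accompanying S-phase functions (Ccne1, Ccne2, E2f1, Slbp and Ung). All 31 passed the filter on low counts.

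RNA came from haematopoietic stem cells sorted from mouse bone marrow as LSK cells (lineage-negative, Sca-1-positive and Kit-positive) lacking CD48 and carrying CD150. 4 libraries were labelled as Gata2 heterozygotes with Mx1-Cre and 4 as Gata2 wild type, with 4 mice per genotype. All mice were 8 to 12 weeks old and had been given 6 doses of pIpC, a double-stranded RNA mimic that induces interferon and so switches on the Mx1 promoter driving Cre. That promoter responds in many interferon-exposed tissues and not in blood stem cells alone, the wild-type labels do not say whether those mice carried Cre, and the labels do not describe the Gata2 allele further. The pIpC treatment was common to both genotypes, so no untreated baseline was analysed here, and an effect of Cre cannot be told apart from one of the Gata2 genotype.

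A cell entering the cycle first licenses its replication origins: the origin recognition complex, with Cdc6 and Cdt1, loads the ring-shaped MCM helicase made of Mcm2 to Mcm7 onto DNA. Kinases then fire the origins, Cdc45 and GINS join MCM to form the active helicase, and polymerases, the sliding clamp PCNA and its loader RFC copy the DNA. Many of these genes are transcribed in late G1 under E2F factors, and blood stem cells are known to be mostly quiescent, while interferon can drive them into the cycle.

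Promoter sequences were searched for words bound by such factors. RefSeq promoter windows (GRCm38.p6) were at hand for 26 of the 31 genes, and the 250 bases before the annotated start were searched on both strands for the E2F words TTTCCCGC, TTTCGCGC, TTTGCCGC and TTTGGCGC. 7 of the 26 genes (26.9%) held at least 1 of these words, namely Cdc6, Mcm5, Mcm6, Mcm7, Orc1, Pola1 and Rfc3, against 1.86% of all 32851 windows and 2.35% of windows of protein-coding genes. CCAAT, the word bound by NF-Y, was in 61.5% of the 26 genes, in 33.8% of all windows and in 35.4% of protein-coding ones. The GC box GGGCGG was in 65.4% of the 26 genes, in 32.7% of all windows and in 42.6% of protein-coding ones. TTTGAA, the CHR element of many G2/M promoters, was in 11.5% of the 26 genes, in 16.0% of all windows and in 14.5% of protein-coding ones. A match of letters is not a measured binding site. The E2F words do not overlap the CCAAT words in the sequences shown. The 3 windows below, which lie wholly upstream of the annotated gene, are given because they show how the words are arranged in a licensing gene with the smallest p, in the most abundant licensing gene and in a fork gene. Capitals mark E2F words and CCAAT words on either strand. They are on GRCm38.p6 at chr8:75109259-75109508 (plus strand), chr1:128359706-128359955 (minus strand) and chrX:93632156-93632405 (minus strand).
Mcm5: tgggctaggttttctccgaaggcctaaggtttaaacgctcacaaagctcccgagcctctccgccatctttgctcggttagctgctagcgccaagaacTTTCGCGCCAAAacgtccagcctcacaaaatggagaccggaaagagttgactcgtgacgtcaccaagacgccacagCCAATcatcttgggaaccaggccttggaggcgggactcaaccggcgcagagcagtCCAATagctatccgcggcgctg
Mcm6: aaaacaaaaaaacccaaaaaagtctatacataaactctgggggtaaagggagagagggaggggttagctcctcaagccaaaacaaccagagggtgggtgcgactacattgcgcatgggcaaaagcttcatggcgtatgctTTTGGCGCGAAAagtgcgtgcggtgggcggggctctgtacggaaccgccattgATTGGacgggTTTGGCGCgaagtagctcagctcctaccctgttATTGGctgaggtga
Pola1: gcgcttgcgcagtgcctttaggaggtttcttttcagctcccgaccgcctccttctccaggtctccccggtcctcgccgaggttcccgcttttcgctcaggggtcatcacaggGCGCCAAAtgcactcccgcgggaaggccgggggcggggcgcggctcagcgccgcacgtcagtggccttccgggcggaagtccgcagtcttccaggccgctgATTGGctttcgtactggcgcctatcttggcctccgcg
In Mcm5 an E2F word on each strand shares the same 12 letters, starting 153 bases before the annotated start, with CCAAT at 77 and 22 bases. Mcm6 also has E2F words overlapping on both strands, from 110 bases, and a further TTTGGCGC at 47 bases. Pola1 has a single E2F word on the opposite strand, from 138 to 131 bases before its start.

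The libraries held between 16750778 and 22861884 fragments assigned to genes, and the 31 genes were covered by 21 fragments (Orc1, heterozygote-labelled replicate 4) to 15508 fragments (Mcm6, wild-type replicate 1). Gata2 itself was not lower in the heterozygote-labelled libraries, at 44.8 ± 12.2 CPM (counts scaled to library size with TMM factors) against 35.8 ± 7.65 CPM in wild type (SD, n = 4 each), a log2 fold change of 0.33 (SE 0.23, edgeR adjusted p = 0.858, exact two-sided permutation p = 0.314). All directions below follow the labels. The libraries also differed in base composition: the correlation, across genes, between GC content and how far a library departed from the mean ran from -0.0988 to -0.0342 in the heterozygote-labelled libraries and was 0.180, 0.232, -0.162 and 0.0402 in wild-type replicates 1 to 4. Of the stem cell markers, 11 of 12 were detected in all 8.

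None of the 31 genes passed the threshold in either direction. edgeR's quasi-likelihood test called 0 of them at an adjusted p of 0.05, where it called 0% of the 13992 genes tested, and the smallest adjusted p among the 31 was 0.850. DESeq2 called none of them either (smallest adjusted p 0.561), beside 0.207% of all genes. At an unadjusted p under 0.05, Mcm5 was the single gene, lower in the heterozygote-labelled libraries, where 5.66% of all genes tested reached that level, 3.29% lower and 2.37% higher. In none of the 31 did the 4 heterozygote-labelled libraries lie wholly apart from the 4 wild-type ones, which 3.47% of all genes did, 1.82% lower and 1.65% higher.

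Most of the genes nonetheless had a fitted value below 0. 21 of 31 had a negative log2 fold change (heterozygote label over wild type), where 52% of all genes did, and the median was -0.18, against -0.018 over all genes tested. By role the medians were -0.23 for licensing (8 of 9 negative), -0.11 for the fork (7 of 13), -0.18 for nucleotide synthesis (3 of 4) and -0.037 for G1/S control (3 of 5). The 95% interval of the fold change lay within 2-fold either way for 22 of the 31 genes (71%), against 44.4% of all genes tested. That bound is much wider than the medians above. The interval reached beyond it for Orc1, Cdt1, Mcm7, Mcm10, Pole, Fen1, Chaf1a, E2f1 and Ung. The genes vary together within a mouse and were not sampled independently, so the counts describe the list and carry no p-value.

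**Figure D1:**
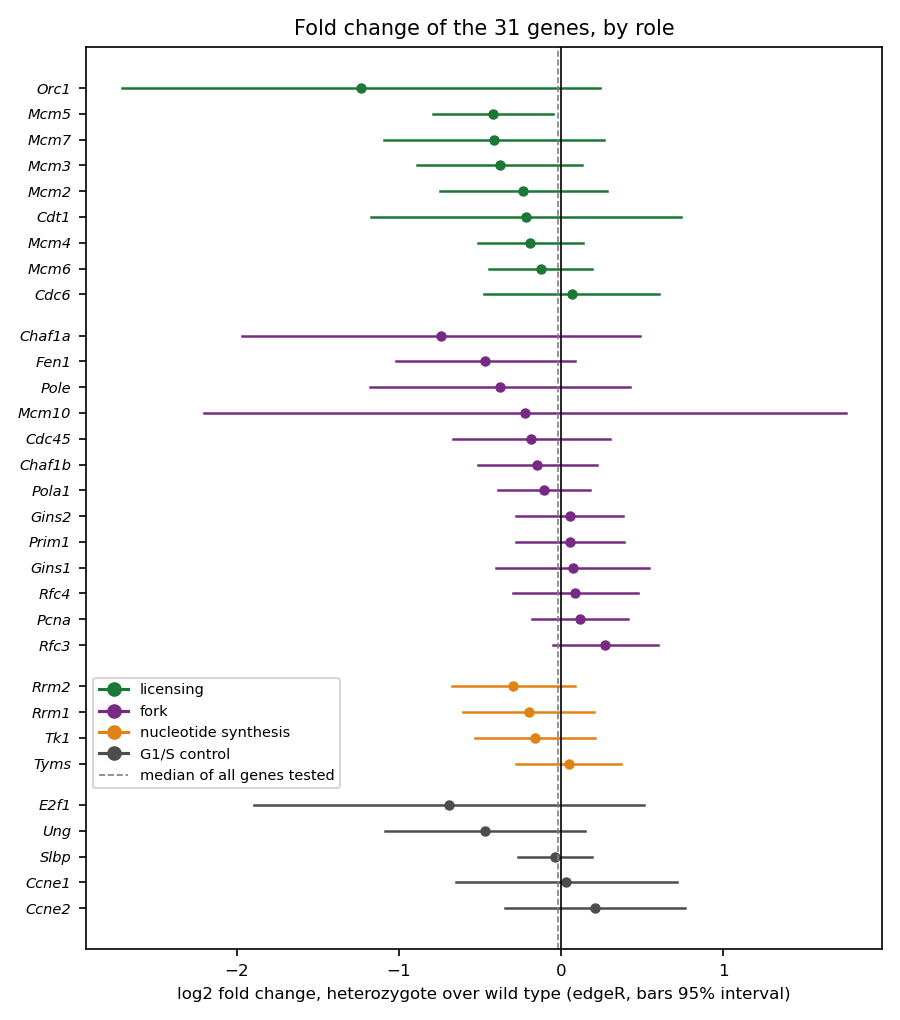
Log2 fold change of each of the 31 genes, heterozygote label over wild type, with its 95% interval from the edgeR fit, grouped by role. The licensing genes other than Cdc6 lie left of 0, the fork genes lie on both sides, and the interval of Mcm5 is the only one that does not include 0.

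Among the licensing genes, all 6 subunits of the MCM helicase were lower on average in the heterozygote-labelled libraries. Mcm5 (ENSMUSG00000005410.6, GRCm38 chr8:75109569-75128439, plus strand), a subunit at the gate through which the ring opens, measured 84.3, 95.1, 97.8 and 109 CPM in heterozygote-labelled replicates 1 to 4, against 137, 166, 114 and 101 CPM in wild-type replicates 1 to 4. 3 of the 4 heterozygote-labelled libraries lay below every wild-type library, and replicate 4 lay within the wild-type range. Its log2 fold change was -0.42 (SE 0.17, unadjusted p = 0.0311, edgeR adjusted p = 0.850), with a fold interval of 0.578 to 0.968 and an exact permutation p of 0.0571, where 0.0286 is the smallest that 70 assignments allow.

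Mcm3 measured 146.7, 187, 135 and 157 CPM in the heterozygote-labelled libraries, against 246, 278, 141 and 146 CPM in wild type (log2 fold change -0.38, SE 0.23). Mcm7 measured 116, 91.4, 66.4 and 112 CPM, against 161, 178, 63.3 and 110 CPM in wild type (-0.41, SE 0.30). In both genes wild-type replicates 1 and 2 stood above all other libraries, while wild-type replicates 3 and 4 lay within or below the range of the heterozygote-labelled ones. Mcm2 measured 43.5, 52.0, 38.6 and 43.3 CPM in the heterozygote-labelled libraries, against 54.9, 74.9, 40.9 and 37.7 CPM in wild type (-0.23, SE 0.23). Mcm4 measured 181, 178, 196 and 212 CPM, against 208, 282, 202 and 181 CPM in wild type (-0.19, SE 0.14). Mcm6, the most abundant subunit, measured 568, 596, 515 and 531 CPM, against 642, 753, 546 and 470 CPM in wild type (-0.13, SE 0.14). The means of these 3 differed by less than the spread (SD) among the wild-type mice, and so did those of Mcm3 and Mcm7. In each of these genes wild-type replicate 2 was the highest library. The edgeR adjusted p of the 6 subunits ran from 0.850 for Mcm5 to 0.919 for Mcm6.

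**Figure D2:**
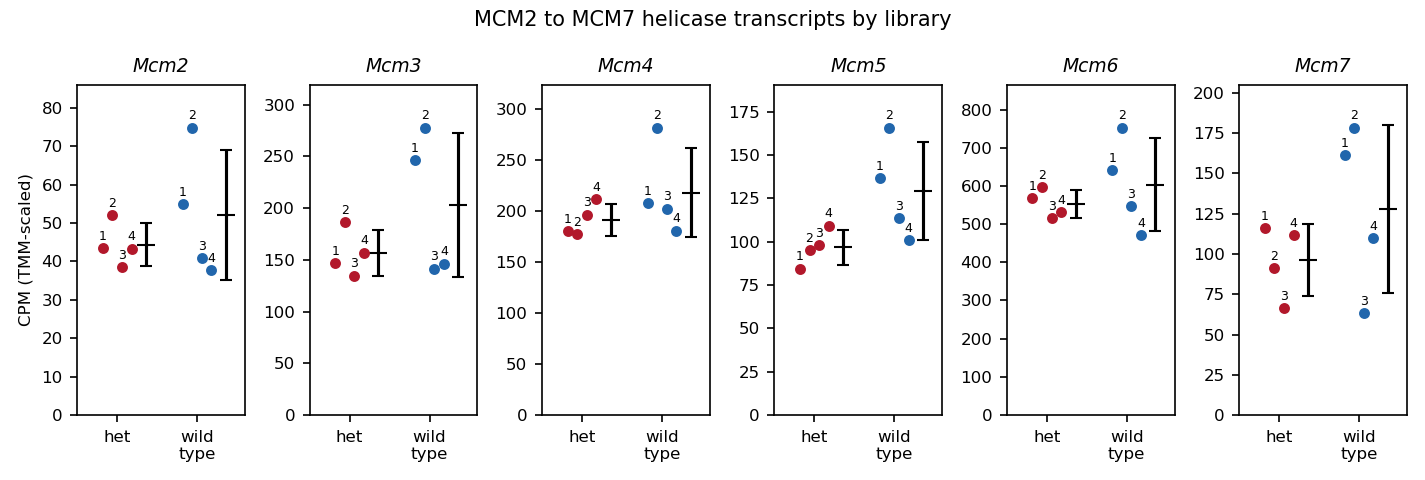
TMM-scaled CPM of the 6 MCM helicase subunits in each library (points, numbered by replicate), with mean and SD of the 4 libraries of each genotype beside them (het, heterozygote label). Wild-type replicate 2 is the highest point in all 6 panels, and wild-type replicates 3 and 4 lie within or below the range of the heterozygote-labelled libraries, except replicate 3 for Mcm5, which is above it.

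Wild-type replicate 2 was the highest of the 8 libraries for all 6 MCM subunits, and for 7 of the 9 licensing genes. Summed over Mcm2 to Mcm7, the transcripts amounted to 1139, 1199, 1049 and 1164 CPM in heterozygote-labelled replicates 1 to 4, against 1449, 1731, 1108 and 1046 CPM in wild-type replicates 1 to 4. The 4 heterozygote-labelled mice thus stood close together (1138 ± 64.1 CPM) and the wild-type mice were spread widely (1333 ± 319 CPM; SD, n = 4 each; exact two-sided permutation p = 0.400). The median log2 fold change of the 6 subunits was -0.30 with all libraries and -0.10 without wild-type replicate 2, where 4 of the 6 remained below 0. It was -0.23 without wild-type replicate 1, -0.40 without wild-type replicate 3 and -0.42 without wild-type replicate 4, with all 6 below 0 in each case. For all 9 licensing genes the median of -0.23 became -0.028 without wild-type replicate 2.

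**Figure D3:**
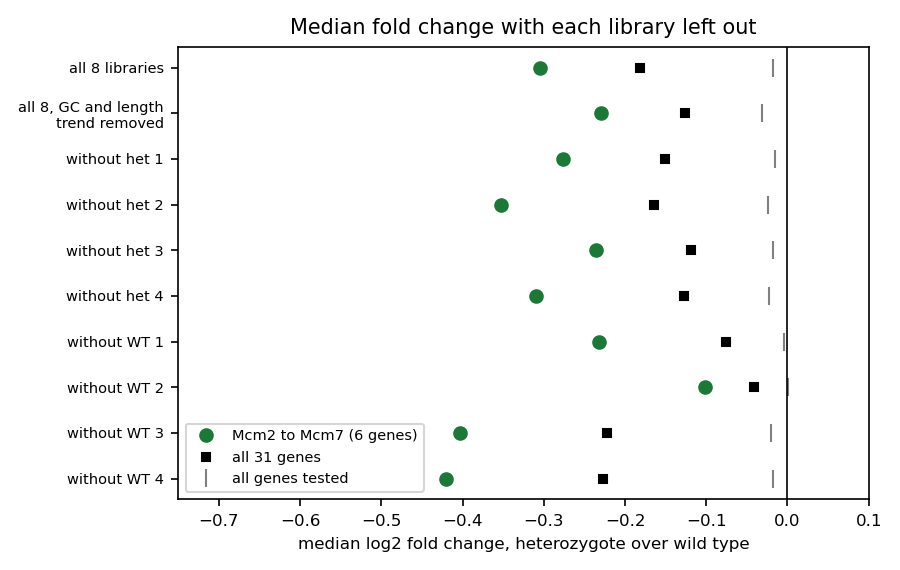
Median log2 fold change, heterozygote label over wild type, of the 6 MCM subunits (circles), of the 31 genes (squares) and of all genes tested (ticks), with all libraries, after the correction for GC content and length, and with each library left out. The circles run from -0.42 without wild-type replicate 4 to -0.10 without wild-type replicate 2.

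Transcripts of the 6 subunits stood at unequal levels. Exon length was that of the annotation in the count files, 6956 bases for Mcm2 and 4666 bases for Mcm6. The isoforms present in these cells were not measured, so the shares below depend on that length. Per kilobase of exon, Mcm6 made up 44.6 ± 2.04% of the MCM2 to MCM7 transcripts in the heterozygote-labelled libraries and 41.6 ± 2.39% in wild type, and Mcm2 2.39 ± 0.198% and 2.36 ± 0.198% (SD, n = 4 each). Mcm4 contributed 20.1 ± 2.13% and 19.7 ± 1.99%, Mcm3 15.6 ± 1.498% and 16.98 ± 2.20%, and Mcm7 8.15 ± 1.73% and 9.06 ± 2.40%, in heterozygote-labelled and wild-type libraries. The helicase contains 1 copy of each subunit, whereas these transcripts spanned a range from 2.21% (Mcm2) to 46.0% (Mcm6) in single libraries. The share of Mcm5 was 7.98%, 8.53%, 9.95% and 10.0% in heterozygote-labelled replicates 1 to 4, against 10.1%, 10.2%, 11.0% and 10.3% in wild-type replicates 1 to 4. It was the only subunit of the 6 whose shares did not overlap between genotypes, a separation noticed after the values were seen and not tested.

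Of the loading factors, Orc1 and Cdt1 varied more from mouse to mouse than any MCM subunit, with biological coefficients of variation of 0.641 and 0.433 against 0.160 to 0.308, while Cdc6 at 0.254 lay within the MCM range. Orc1 (ENSMUSG00000028587.18, chr4:108579423-108614833, plus strand), the largest subunit of the origin recognition complex, measured 13.4, 5.14, 2.35 and 1.07 CPM in the heterozygote-labelled libraries, against 17.96, 9.03, 13.2 and 11.4 CPM in wild type. 3 of the 4 heterozygote-labelled libraries were below every wild-type library, and replicate 1 lay within the wild-type range. The log2 fold change was -1.23 (SE 0.66, edgeR adjusted p = 0.850), the most negative of the 31, with a fold interval of 0.153 to 1.18. Leaving out heterozygote-labelled replicate 1 therefore removed the overlap for Orc1 by construction. In that fit the smallest edgeR adjusted p of any of the 31 genes was 0.824. Cdc6, the ATPase that works with the origin recognition complex, ran from 59.0 to 116 CPM in the heterozygote-labelled libraries and from 56.1 to 105 CPM in wild type (0.066, SE 0.24). Cdt1, which brings MCM to the origin, ran from 10.5 to 20.4 CPM and from 8.90 to 30.8 CPM (-0.21, SE 0.43).

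Genes of the replication fork showed no common direction. Fen1 (ENSMUSG00000024742.15, chr19:10199132-10204169, minus strand), the flap nuclease that trims Okazaki fragments, measured 139, 94.4, 90.8 and 103 CPM in the heterozygote-labelled libraries, against 179, 201, 91.9 and 118 CPM in wild type. Wild-type replicates 1 and 2 were the highest libraries, as they were for Mcm3 and Mcm7, and the remaining wild-type values lay among the heterozygote-labelled ones (log2 fold change -0.47, SE 0.25, edgeR adjusted p = 0.850). Rfc3 (ENSMUSG00000033970.15, chr5:151642756-151651242, minus strand), a small subunit of the clamp loader, went the other way, with 84.8, 96.1, 78.3 and 108 CPM, against 66.4, 85.6, 71.6 and 79.8 CPM in wild type (0.28, SE 0.15, edgeR adjusted p = 0.850). 2 of the 4 heterozygote-labelled libraries exceeded all wild-type libraries.

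Pcna, the sliding clamp that holds polymerases on DNA, was the most abundant of the 31 genes per length. It measured 411, 498, 467 and 388 CPM in the heterozygote-labelled libraries, against 369, 371, 505 and 380 CPM in wild type (0.12, SE 0.13). Here wild-type replicate 3 was the highest library and the other 3 wild-type libraries the lowest. Chaf1a, the large subunit of the histone chaperone CAF-1, was the least abundant per length, with 2.86, 6.73, 5.35 and 2.20 CPM, against 5.21, 14.5, 5.50 and 3.39 CPM in wild type (-0.74, SE 0.55). Its partner Chaf1b stood far higher, at 145 ± 15.5 CPM in the heterozygote-labelled libraries and 161 ± 35.9 CPM in wild type (-0.14, SE 0.16).

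The other fork genes lay close to 0 or were too variable to place. Gins1 and Gins2, of the GINS complex, had log2 fold changes of 0.072 (SE 0.21) and 0.054 (SE 0.15), and Cdc45, which binds with GINS to MCM, -0.18 (SE 0.22). The primase subunit Prim1 was at 0.057 (SE 0.15), the catalytic subunit of polymerase alpha, Pola1, at -0.11 (SE 0.13), and Rfc4, another clamp loader subunit, at 0.090 (SE 0.17). Pole, the catalytic subunit of the leading-strand polymerase epsilon, ran from 11.9 to 27.1 CPM in the heterozygote-labelled libraries and from 10.9 to 29.6 CPM in wild type (-0.38, SE 0.36). Mcm10, a factor for helicase activation outside the ring, ran from 1.36 to 22.4 CPM and from 1.01 to 25.5 CPM. Both genotypes therefore held mice with hardly any Mcm10 transcript and mice with many-fold more, and its log2 fold change of -0.22 had an SE of 0.89.

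Among genes of deoxynucleotide synthesis the differences were small. Rrm2 (ENSMUSG00000020649.11, chr12:24708241-24714146, plus strand), the S-phase subunit of ribonucleotide reductase, measured 165, 160, 198 and 156 CPM in the heterozygote-labelled libraries, against 287, 176, 188 and 180 CPM in wild type. 3 heterozygote-labelled libraries lay below all wild-type ones, and wild-type replicate 1 stood far above the rest (log2 fold change -0.29, SE 0.17, edgeR adjusted p = 0.850). Heterozygote-labelled replicate 3 alone of its genotype lay within the wild-type range, so leaving it out removed the overlap for Rrm2 by construction. Rrm1, the large subunit of the same enzyme, measured 566, 366, 358 and 591 CPM, against 605, 558, 534 and 462 CPM in wild type (-0.20, SE 0.18), so that the heterozygote-labelled libraries formed a low pair (replicates 2 and 3) and a high pair (replicates 1 and 4). Thymidine kinase Tk1 measured 165, 155, 149 and 142 CPM, against 221, 163, 122 and 177 CPM in wild type (-0.16, SE 0.17). Its wild-type range enclosed all heterozygote-labelled values. Thymidylate synthase Tyms averaged 268 ± 14.0 CPM in the heterozygote-labelled libraries and 259 ± 55.7 CPM in wild type (SD, n = 4 each; 0.048, SE 0.15).

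The G1/S control genes had a median near 0. Ung, the uracil-DNA glycosylase that removes uracil from new DNA, measured 38.3, 24.8, 23.8 and 38.8 CPM in the heterozygote-labelled libraries, against 44.8, 62.6, 28.9 and 37.6 CPM in wild type (log2 fold change -0.47, SE 0.28, edgeR adjusted p = 0.850). E2f1, an activating E2F factor, was a low transcript at 3.31, 7.96, 3.93 and 2.46 CPM, against 6.04, 12.3, 2.63 and 7.49 CPM in wild type (-0.69, SE 0.54). In both genes the genotypes overlapped and wild-type replicate 2 was the highest library. Ccne2, a cyclin E, measured 247, 186, 289 and 268 CPM, against 281, 117, 251 and 206 CPM in wild type (0.21, SE 0.25). For Ccne2 wild-type replicate 2 was instead the lowest library. The other cyclin E gene, Ccne1, averaged 16.5 ± 4.87 CPM in the heterozygote-labelled libraries and 16.1 ± 4.34 CPM in wild type (0.034, SE 0.31). Slbp, the histone mRNA stem-loop binding protein, measured 477, 541, 473 and 417 CPM, against 531, 484, 485 and 458 CPM in wild type (-0.037, SE 0.10). It was the most even of the 31, and its fold interval ran from 0.832 to 1.14.

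Compared per kilobase of exon, levels of the 31 genes spanned about 2 orders of magnitude, and their order was similar in the 2 genotypes. That order depends on the annotated exon length, from 1516 bases for Gins1 to 11160 bases for Pole, and not on the isoforms present in these cells. Pcna stood at 184 ± 21.1 CPM per kilobase in the heterozygote-labelled libraries and 169 ± 27.5 in wild type, followed by Rfc4 at 153 ± 9.497 and 144 ± 39.7 and Mcm6 at 118 ± 7.90 and 129 ± 26.2 (SD, n = 4 each). The difference between Pcna and Rfc4 was within their spread in wild type. At the low end were Chaf1a at 1.30 ± 0.641 and 2.16 ± 1.503, Mcm10 at 1.65 ± 1.21 and 1.93 ± 1.36, E2f1 at 1.40 ± 0.773 and 2.26 ± 1.27 and Pole at 1.59 ± 0.589 and 2.07 ± 0.750 CPM per kilobase, in heterozygote-labelled and wild-type libraries. These did not differ from one another beyond their spread. In bulk RNA of a sorted population, a lower level in every cell and a smaller number of cycling cells cannot be told apart.

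**Figure D4:**
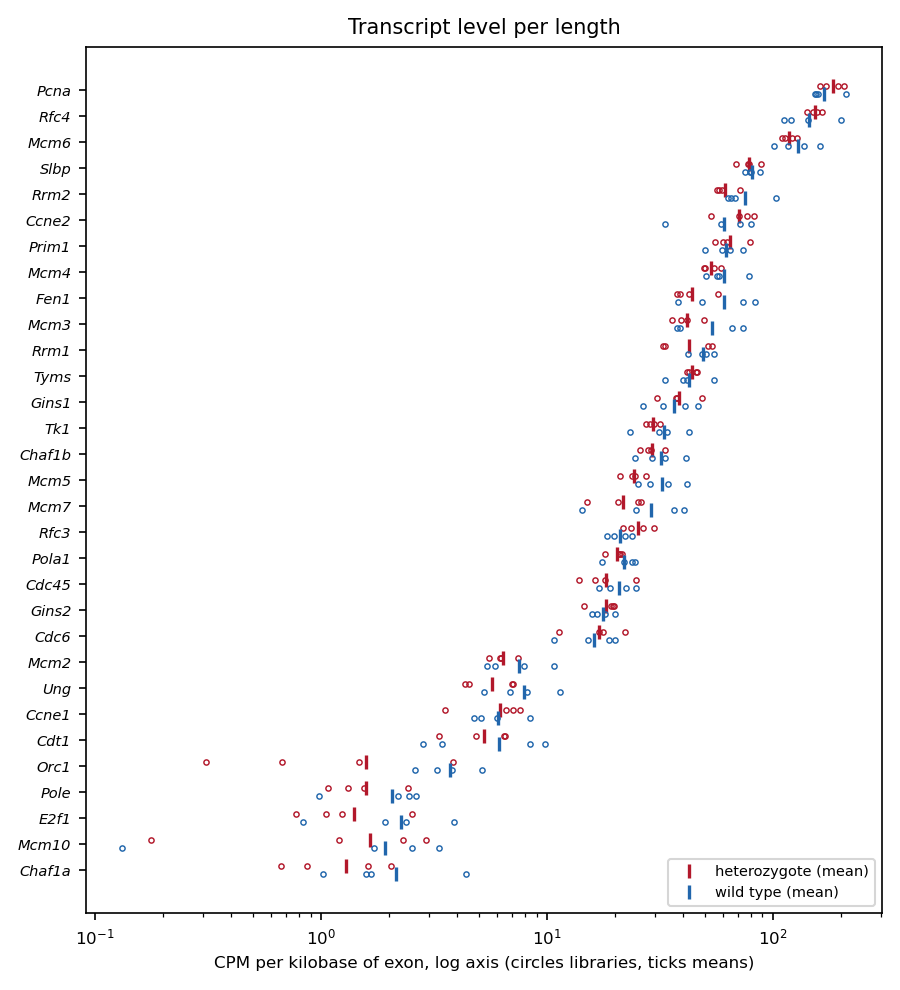
Level of each of the 31 genes in CPM per kilobase of exon on a log axis, with a circle for each library and a tick for the mean of each genotype (heterozygote label above, wild type below). The genes run from Pcna at the top to Chaf1a at the bottom, and single mice of both genotypes are far below the rest for Mcm10.

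The spread between mice of one genotype was modest for most of these genes and large for the rarest. The biological coefficient of variation, the replicate spread fitted by edgeR, ran from 0.128 for Slbp to 0.834 for Mcm10 with a median of 0.229, against a median of 0.377 over all genes tested. By library, the median deviation of the 31 genes from their own 8-library mean was 0.031, -0.051, -0.046 and -0.11 (log2) in heterozygote-labelled replicates 1 to 4, against 0.27, 0.17, 0.020 and -0.056 in wild-type replicates 1 to 4. Wild-type replicate 2 was the highest library for 13 of the 31 genes and wild-type replicate 1 for 6. Wild-type replicate 2 was also the lowest library for 5 genes, namely Ccne2, Rfc4, Gins1, Tyms and Pole.

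**Figure D5:**
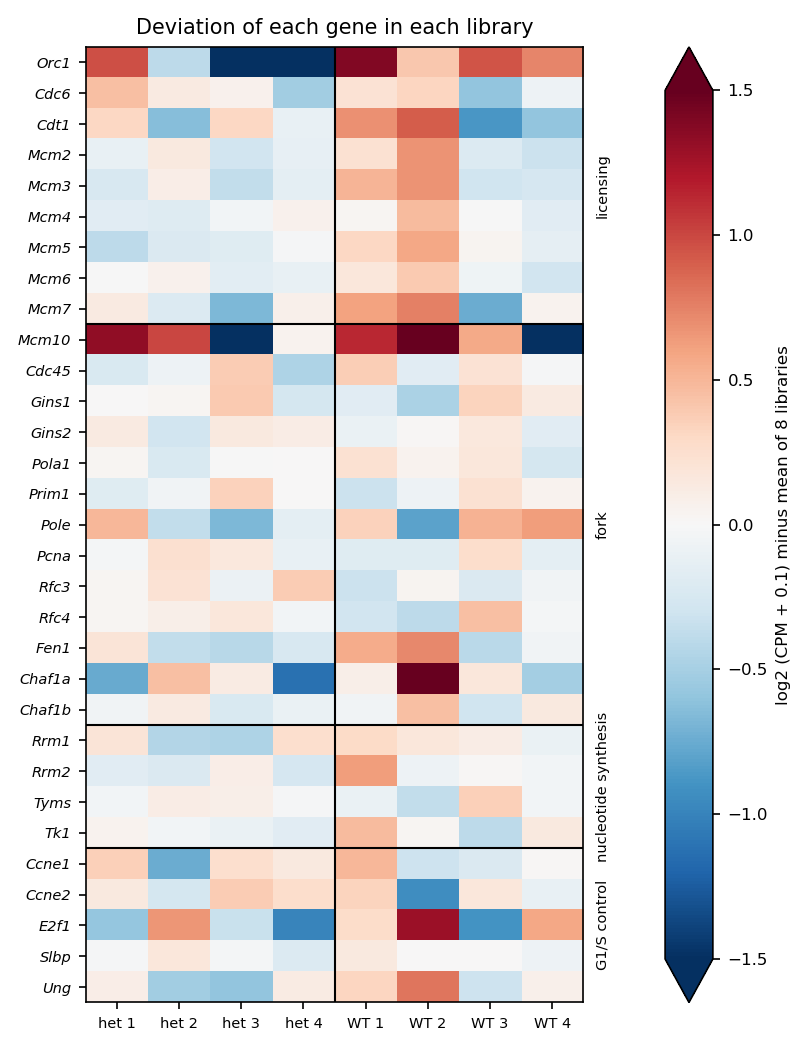
Log2 deviation of each gene from its mean over the 8 libraries, with heterozygote-labelled libraries at left and wild-type libraries at right, and genes in rows by role (colours end at 1.5 either way). The licensing block is red in wild-type replicates 1 and 2, while fork genes such as Gins1 and Rfc4 are blue in wild-type replicate 2.

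Leaving out single libraries moved the number of genes at an unadjusted p under 0.05. Without wild-type replicate 3 it was 8 (Mcm3, Mcm5, Mcm7, Fen1, Ung and Tk1 lower, Pcna and Rfc4 higher), beside 12.5% of all genes in that fit and a smallest adjusted p of 0.273 among the 31. It was 2 without heterozygote-labelled replicate 1 (Orc1 and Fen1), beside 5.89% of all genes. Without heterozygote-labelled replicate 3 it was 1, which was Rfc3 and not Mcm5, beside 4.33% of all genes. Mcm5 stayed the single gene without heterozygote-labelled replicate 4 (6.17% of all genes) or wild-type replicate 4 (5.17%). It was 0 genes when heterozygote-labelled replicate 2 (4.88% of all genes), wild-type replicate 1 (3.96%) or wild-type replicate 2 (3.87%) was omitted. No fit with a library left out brought a member past an adjusted p of 0.05.

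Base composition moved with these values. Wild-type replicates 1 and 2, which had the highest MCM levels, were also the libraries shifted most towards GC-rich genes. The 16 members with the higher GC content (48.7% to 58.3%) had a median log2 fold change of -0.23 with 13 negative, and the 15 with the lower GC content (36.3% to 48.3%) had -0.037 with 8 negative. All genes tested within those GC ranges had medians of -0.10 and 0.064. After a correction of every library for GC content and exon length, the 6 MCM subunits were all still below 0, with a median of -0.23, and Mcm5 was at -0.30. The 31 genes had a median of -0.13 with 23 negative, where all genes tested had -0.031 with 53.7% negative. The higher-GC members then had a median of -0.18 (12 negative) and the lower-GC members one of -0.095 (11 negative). Cdt1, Gins1, Prim1 and Rfc4 changed sign, and no member then had an unadjusted p under 0.05.

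Reads of Xist and of Y-linked genes showed females in replicates 1 and 4 and males in replicates 2 and 3 of both genotypes, so sex was balanced. Within females (2 against 2) the median difference of the 31 genes was -0.090 (19 negative), and within males it was -0.16 (19 negative), in log2 CPM. For the MCM subunits the medians were -0.15 in females (5 of 6 negative) and -0.34 in males (6 of 6). Mcm10 differed by 1.63 in females and by -1.85 in males, the widest disagreement among the 31, with 2 libraries per genotype in each sex. Rrm1, whose low pair were the males, differed by 0.13 in females and by -0.59 in males. The difference between the sexes was not tested.

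Other genes of the same steps, listed by role from textbook knowledge, gave no call either. Of 69 listed, 68 were tested, of which 0 passed an adjusted p of 0.05, 41 were negative and 27 positive, and the median log2 fold change was -0.082. At an unadjusted p under 0.05 there were 5 lower and 1 higher of the 68, where 3.29% of all genes tested were lower and 2.37% higher. The lower ones were all fork genes: Rpa1, which coats single-stranded DNA (111 ± 17.9 CPM in the heterozygote-labelled libraries, 171 ± 49.6 CPM in wild type, -0.63, SE 0.21), Clspn, the checkpoint mediator claspin (8.02 ± 1.70 and 13.5 ± 3.37 CPM, -0.75, SE 0.29), Lig1, which joins Okazaki fragments (89.0 ± 16.99 and 124 ± 27.4 CPM, -0.48, SE 0.19; SD, n = 4 each), and, outside the naming rule and named after their values were seen, Pold4 and Rfc5. Each had an edgeR adjusted p of 0.850. For Rpa1 and Lig1 wild-type replicates 1 and 2 were again the highest libraries.

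The gene higher at that level was Mcmbp, which encodes an MCM-binding protein. It measured 334, 360, 328 and 243 CPM in the heterozygote-labelled libraries, against 198, 173, 261 and 210 CPM in wild type. 3 of the 4 heterozygote-labelled libraries exceeded every wild-type library, and the log2 fold change was 0.59 (SE 0.16, unadjusted p = 0.00413, edgeR adjusted p = 0.850). Cdc7, the kinase that fires licensed origins, measured 28.9, 23.6, 22.3 and 25.6 CPM, against 30.9, 34.5, 29.6 and 33.7 CPM in wild type (-0.36, SE 0.17). The genotypes did not overlap for Cdc7, Clspn, Pold4 and Prim2 (lower) and Rnaseh2a (higher), 5 of 68 genes, where 1.82% of all genes tested did not overlap in the lower direction and 1.65% in the higher. Prim2 and Rnaseh2a were named after their values were seen. Kat7, a histone acetyltransferase of origins, was at -0.51 (SE 0.32). Among 10 further nucleotide genes 5 were negative, with Dut at -0.17 (SE 0.10), Samhd1 at 0.24 (SE 0.15) and Shmt1 at -0.38 (SE 0.28). Of 16 further G1/S control genes 10 were negative. They included the repressor E2f8 at -1.53 (SE 0.74; 2.21 ± 2.06 CPM in the heterozygote-labelled libraries and 6.38 ± 3.42 CPM in wild type), Fbxw7, of the ligase that degrades cyclin E, at 0.44 (SE 0.28), and the E2F partner Tfdp2 at 0.34 (SE 0.22).

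Mitotic transcripts and markers of other cells were set beside these values. 16 mitotic genes summed to 1601 to 1851 CPM in the heterozygote-labelled libraries and 1697 to 2086 CPM in wild type, with wild-type replicate 1 the highest. 14 of the 16 had a negative log2 fold change (median -0.17, 0 past the threshold), where 52% of all genes tested did. At an unadjusted edgeR p under 0.05, 2 were lower, Kif11 (-0.56, SE 0.20) and Bub1b (-0.77, SE 0.33), and 0 higher. Of all genes tested, 3.29% were lower at that level and 2.37% higher. The 12 stem cell markers summed to 826 to 954 CPM in the heterozygote-labelled libraries and 781 to 1156 CPM in wild type, with wild-type replicate 2 the highest.

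Transcripts marking progenitors, or the cells that the sort removes (6 listed, 5 detected in every library, Il7r at 0), summed to 873 to 962 CPM in the heterozygote-labelled libraries and 709 to 812 CPM in wild type and did not overlap. That separation lay mostly in 1 gene, the leukocyte tetraspanin Cd53, at 306 ± 15.8 CPM and 179 ± 49.4 CPM (edgeR adjusted p = 0.850, DESeq2 adjusted p = 0.0466). Cd34 (397 ± 25.0 and 396 ± 88.3 CPM), Cd27 (169 ± 18.3 and 165 ± 16.4 CPM) and Cd48 (24.4 ± 6.41 and 23.5 ± 2.59 CPM) were near equal in mean, and Flt3 was at 12.9 ± 4.60 and 7.02 ± 1.69 CPM, in heterozygote-labelled and wild-type libraries (SD, n = 4 each).

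Megakaryocyte and platelet markers mostly had lower means in the heterozygote-labelled libraries, as the MCM genes did, with 6 of 7 tested negative and a median log2 fold change of -0.62. They summed to 488 to 787 CPM in the heterozygote-labelled libraries and 640 to 946 CPM in wild type. Most of that sum was Pf4 (407 to 676 CPM and 499 to 814 CPM). The sum was highest in wild-type replicates 3 and 4 (946 and 908 CPM), the wild-type libraries with the lowest MCM sums. That order was the order of Pf4 and not of the whole list. Pf4 and Ppbp were highest in wild-type replicate 3. Itga2b, Gp1ba, Gp9 and Vwf were highest in wild-type replicate 2 (65.0, 18.2, 26.5 and 37.6 CPM), as the MCM genes were. Tubb1 was highest in heterozygote-labelled replicate 1. The genotypes did not overlap for Vwf (16.6 ± 2.44 and 30.3 ± 5.48 CPM, -0.87, SE 0.22), von Willebrand factor. Erythroid markers (8 of 9 detected in every library) summed to 56.6 to 112 CPM and 61.9 to 167 CPM, with 6 of 8 tested negative and a median of -0.82. These were variable genes, with SEs from 0.39 (Epor) to 0.81 (Hba-a2, 5 to 79 fragments). Their median biological coefficient of variation was 0.577, against 0.377 over all genes tested. No gene of either list passed the threshold with edgeR. Granulocyte markers summed to 184 to 318 CPM and 216 to 347 CPM, monocyte and macrophage markers to 341 to 375 CPM and 353 to 392 CPM, and stromal and endothelial markers to 20.9 to 44.0 CPM and 33.9 to 64.0 CPM. Nearly all of the monocyte sum was Lyz2 (337 to 373 CPM and 340 to 387 CPM).

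The T and NK cell list summed to 312 to 513 CPM in the heterozygote-labelled libraries and 233 to 438 CPM in wild type. Nkg7, a cytotoxic granule gene, made up nearly all of it (312 to 510 CPM and 228 to 432 CPM), while Cd3e, Cd3g and Cd8a were at 0 in every library and Cd3d and Cd4 stayed below 1 CPM. Klrb1c, an NK receptor gene, was at 0 to 2.88 CPM in the heterozygote-labelled libraries and 3.70 to 6.08 CPM in wild type and did not overlap. Cd79b, a B cell receptor gene, was at 103 to 125 CPM and 104 to 129 CPM. The part of these cell types in the values of the replication genes was not tested.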

How the data were processed

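Total RNA of 8 sorted stem cell samples was depleted of ribosomal RNA and sequenced as stranded paired reads, per the labels' protocols. Per the submitters' processing notes, trimming used Trim Galore with cutadapt, and STAR 2.5.1b placed the reads on GRCm38. The authors deposited raw fragment counts per gene, made with featureCounts in reverse-stranded mode and the GENCODE M17 annotation (per the file headers, which give version 1.6.2 where the notes give 1.5.1). Fragments mapping to several places were not counted, so genes with close copies can read low. No identifier marked PCR copies, and counts cover counting error only.

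Symbols and GC content came from a later GENCODE release of the same build, and exon length from the count files (53620 of 53715 identifiers had a symbol). Low genes were dropped with filterByExpr and libraries scaled by TMM (edgeR 4.0.16, R 4.3.3); genotype alone was tested by robust quasi-likelihood, and p-values were adjusted by Benjamini-Hochberg over 13992 genes. Log2 CPM carries a prior count of 2. DESeq2 1.42.0 and limma 3.58.1 were alternatives. The fits were tested on simulated data. Every pair of libraries differed by more than sampling noise (lowest chi-square per degree of freedom 38.1). Nothing beyond the 4 mice per genotype says how mice were related, so p-values measure the spread between these mice.

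The genes, lists, roles and the rule for naming genes were chosen with earlier results of these data known. The rule gave values in every library for the 3 genes of each role with the smallest p, the highest and lowest per length and the MCM subunits, and up to 3 genes of each further list by p. Replicate numbers are shared between genotypes, and same-numbered mice had the same sex. The labels do not say whether they were pairs. Same-numbered libraries deviated together with correlations of 0.00566 to 0.0961, against -0.084 to 0.050 for libraries of different numbers. These values do not settle the pairing. The main fit did not treat the libraries as pairs, and an alternative with a replicate block is given below.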

Additional observations from a re-analysis of the deposited data

Results flagged for a closer look

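4 of the 64 sets of 4 libraries examined (31 genes and Gata2, in each genotype) held a library standing apart from the other 3 by Dixon's test, where chance gives about 1 set in 20. Gins2 was low in heterozygote-labelled replicate 2, at a log2 CPM of 5.91 against 6.30 to 6.34 in the other heterozygote-labelled libraries. Pola1 was low in the same library, at 7.31 against 7.53 to 7.56. Pcna was high in wild-type replicate 3, at 8.98 against 8.53 to 8.57 in the other wild-type libraries. Those other libraries lay below every heterozygote-labelled one, so leaving out wild-type replicate 3 removed the overlap for Pcna by construction. Its log2 fold change was then 0.24. Rrm2 was high in wild-type replicate 1, at 8.17 against 7.46 to 7.56. The MCM subunits, in which wild-type replicate 2 was the highest library throughout, gave no such value. Wild-type replicate 1 lay between it and the other wild-type libraries for each subunit.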

How the results depend on the processing

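19 alternatives were run. No member passed an adjusted p of 0.05 in any of them, and DESeq2 called 29 genes over the whole table where edgeR called 0 (with 792 at an unadjusted p under 0.05). Scaling by library size alone shifted the median of all genes to -0.082, and 26 of 31 members were then negative. The median of the fork genes was 0.037 with limma-voom. Signs turned with limma-voom for Ccne1 (-0.033), Cdc6 (-0.046) and Mcm10 (0.037), with library-size scaling for Ccne1 (-0.034), Cdc6 (-0.012), Gins2 (-0.0068), Prim1 (-0.00079) and Tyms (-0.0031), with the GC and length trend removed for Cdt1 (0.079), Gins1 (-0.010), Prim1 (-0.014) and Rfc4 (-0.036), and with that and the replicate block for Cdt1 (0.15), Gins1 (-0.013), Prim1 (-0.019) and Rfc4 (-0.030). With libraries left out, the median of the 31 ran from -0.23 to -0.041 (the last without wild-type replicate 2), members negative from 20 to 23 and members whose genotypes did not overlap from 0 to 2. The share of all genes that did not overlap was not computed for those fits. Over those fits Cdc6 ran from -0.088 to 0.22, Cdt1 from -0.45 to 0.12, Mcm2 from -0.36 to 0.0070, Mcm6 from -0.23 to 0.012, Mcm10 from -0.64 to 0.19, Gins1 from -0.057 to 0.21, Prim1 from -0.059 to 0.15, Rfc4 from -0.00093 to 0.29, Chaf1b from -0.25 to 0.015, Tyms from -0.040 to 0.20, Ccne1 from -0.070 to 0.24 and Slbp from -0.10 to 0.022. The other 18 members kept their sign in every alternative. With the replicate block the median of the 31 was -0.13, 21 were negative and 0 were called. Orc1, and no longer Mcm5, then had an unadjusted p under 0.05, beside 6.76% of all genes. The cause of these shifts was not tested.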
